A study of Mus musculus with 12 samples.

Results

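Macrophages that had entered neuroblastoma spheres were compared between 48 h and 24 h of co-culture. The comparison rests on the 3 in-sphere arrays of each time, which are 6 of the 12 arrays of the study, chosen by their time and compartment labels alone. Of 17097 mouse genes with a probe set of their own, 12488 were bright enough on at least 3 arrays to be tested. The macrophages were grown from C57BL/6 bone marrow, and they were given to spheres that the mouse neuroblastoma line TT9423 had formed overnight on agar, with no further treatment in any group. In-sphere cells were freed by enzymatic digestion and selected on CD11b magnetic columns, CD11b being an integrin of macrophages, monocytes and granulocytes. The remaining 6 arrays, 3 for each time, hold macrophages of the cultures that stayed outside the spheres, and the sources used here do not say whether those were digested and selected alike. Replicates are separate experiments, each pooling the cells of several wells. Titles and labels give the times, but the protocol shared by all samples describes only 24 h of co-culture.

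Macrophages in a tumour meet tumour cells, dying cells and limited oxygen, and they are known to shift between inflammatory, tissue-repairing and lipid-handling gene programmes. Cultures of marrow-derived macrophages can still divide and can carry granulocyte precursors, which make the proteins of their primary granules first and those of their secondary granules later. Genes of mitosis, such as the cyclin B partners of the kinase Cdk1, are switched on late in the cell cycle and shut off as cells leave it.

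Macrophage marker genes were bright on the in-sphere arrays, and so were granulocyte genes. On every in-sphere array each of the 18 tested macrophage identity genes had a level above the filter, the lowest being 5.32 on the log2 scale, and their mean log2 level ran from 9.79 to 10.16 at 24 h and from 9.99 to 10.08 at 48 h. The 14 tested neuroblastoma and neural genes averaged between 3.37 and 3.49 at 24 h and between 3.38 and 3.42 at 48 h, close to the filter level of 2.77. Of these, 6 stood above that level on all 6 in-sphere arrays. On the outside arrays the list averaged 3.02 to 3.11 at 24 h and 2.83 to 2.93 at 48 h, and the part of tumour cells in the in-sphere values was not tested. Granulocyte genes, which CD11b selection does not remove, were bright, as described with their differences. The third replicate at 48 h stood apart: its mean log2 value over all probe sets was 4.06 against 4.20 to 4.22 on the other 5 in-sphere arrays, and its estimated array weight was 0.235. Mean level, 3′ minus 5′ actin signal and 3′ minus 5′ GAPDH signal gave two-sided exact permutation p-values between times of 0.90, 0.40 and 0.70, where 0.10 is the smallest that 3 against 3 arrays allow. These tests compare means and not spread: the GAPDH signal ran from -0.12 to 0.43 at 24 h and from 0.11 to 0.15 at 48 h.

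No gene passed an adjusted p of 0.05 between 24 and 48 h inside the spheres in limma's moderated test with Benjamini-Hochberg adjustment (0% of 12488 genes), the smallest adjusted p being 0.0560. With 1 array left out in turn the count was 0 to 10, the highest being 10 without replicate 2 at 48 h and 9 without replicate 2 at 24 h. At an unadjusted p under 0.05 there were 1341 genes (10.7%), 378 higher at 48 h (3.03%) and 963 lower (7.71%). The 95% interval of the difference extended by 0.35 on the log2 scale to either side at the median gene, and for 11614 genes (93.0%) it lay within 1 log2 unit of 0. Differences of log2 1 or more were seen for 66 genes, 19 higher and 47 lower, against 125 outside the spheres. The excess of lower values moved with the third replicate at 48 h. The median difference over all genes was -0.07 with all arrays and 0.01 without that array, and the within-experiment median differences were 0.02, -0.0014 and -0.24. With each array centred on its own median the split at an unadjusted p under 0.05 turned from 28.2% higher to 73.5% higher, and the median difference of all genes to 0.08. The highest list medians, of mitosis and immediate-early genes, kept their sign under that centring, at 0.59 and 0.43. So did the lowest, at -0.64 for granulocyte and -0.44 for interferon-stimulated genes. Others turned from negative to positive, such as those of the fibroblast (0.13), classical activation (0.02) and alternative activation (0.09) lists. Counts for a list of genes are to be read against all tested genes, of which 36.1% had a higher and 63.9% a lower mean at 48 h, 4.46% were non-overlapping and higher and 9.3% non-overlapping and lower. Over 44 lists with 627 tested genes limma called 0.

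When the experiment number entered the model as a block, 15 genes passed (0.12%), with adjusted p from 0.00804 to 0.0439 in limma. Without the block their adjusted p ran from 0.0560 to 0.272, and over all alternatives from 0.00085 to 0.827. All 15 had the same sign without the third replicate at 48 h, by 0.70 or more on the log2 scale, although the blocked fit then called 2 genes, Alas1 and Slc13a3. The 24 h and 48 h arrays did not overlap for 14 of the 15. These genes and the others listed with them below were chosen after their values were seen.

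**Figure D1:**
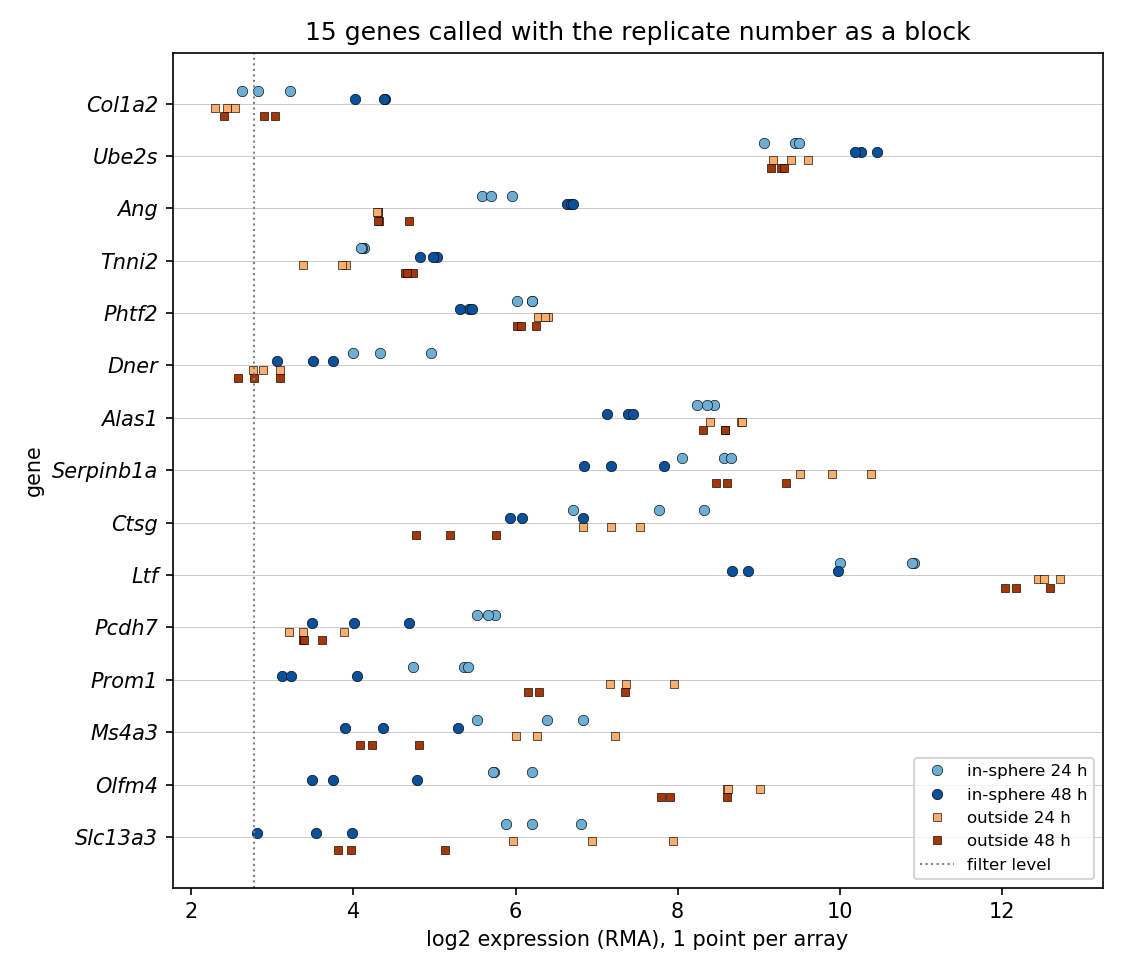
Log2 expression on each of the 6 in-sphere arrays for the 15 genes that passed adjusted p 0.05 in the fit with the experiment as a block, and, as smaller squares, on the 6 outside arrays; each point is an array, coloured by group, and the dotted line is the filter level. The in-sphere arrays of the times lie apart for all of the 15 but Ctsg.

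The blocked genes with lower values at 48 h (11 genes, 0.0881% of those tested) were led by Slc13a3, a sodium-coupled transporter of dicarboxylates. Its log2 levels at 24 h were 6.20, 6.80 and 5.89, and at 48 h 2.82, 3.99 and 3.55. Every 48 h array lay far below every 24 h array, the difference being -2.85 ± 0.49 (SE, n = 3 against 3, adjusted p = 0.0668 in limma, 0.00804 with the block, 0.00085 to 0.204 over the alternatives). Alas1, the first enzyme of heme synthesis, stood at 8.44, 8.36 and 8.24 and then at 7.39, 7.44 and 7.13. The times did not overlap and replicates lay close together, with a difference of -1.03 ± 0.14 (adjusted p = 0.0560 in limma, 0.00804 with the block, 0.00612 to 0.278 over the alternatives). Pcdh7, a cell adhesion protein of the protocadherin family, was at 5.75, 5.52 and 5.66 and then at 4.68, 4.01 and 3.49. The 24 h arrays were tight and the 48 h arrays spread out below them. Dner, a Notch-binding membrane protein, differed by -0.99 ± 0.24 and Phtf2 by -0.74 ± 0.11.

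The other 6 lower genes with the block are described singly. Of these, only Ltf belongs to a list chosen for description, that of granulocyte genes. Ltf, the secondary granule protein lactoferrin, had log2 levels of 10.00, 10.92 and 10.89 at 24 h and 8.67, 9.98 and 8.87 at 48 h. Olfm4, a glycoprotein of neutrophil granules, had 5.73, 5.73 and 6.21 and then 3.76, 4.79 and 3.49. Both showed no overlap between times, and in both the second experiment was the highest at 48 h. Ms4a3, a membrane protein of granulocyte and monocyte precursors, differed by -1.73 ± 0.42, Prom1, a marker of stem and progenitor cells, by -1.71 ± 0.34, and Serpinb1a, an inhibitor of neutrophil proteases, by -1.14 ± 0.30. Ctsg, the primary granule protease cathepsin G, differed by -1.33 ± 0.39, and its lowest 24 h array (6.71) lay below its highest 48 h array (6.83).

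Granulocyte genes as a list had lower values at 48 h. All 13 tested members differed downwards, with a median of -0.79, against -0.07 over all genes. The list's median ran from -0.99 to -0.57 with an in-sphere array left out in turn (-0.78 without the third replicate at 48 h). The arrays did not overlap for 3 of the 13, where 9.3% of all genes were non-overlapping and lower. 9 of 13 were lower in all 3 experiments, as were 20.3% of all genes. No member passed without the block and 1, Ltf, passed with it. Camp, the antimicrobial peptide cathelicidin, stood at 10.00, 10.69 and 10.35 and then at 8.57, 10.01 and 7.84. Mpo, the myeloperoxidase of primary granules, stood at 6.82, 8.80 and 8.58 and then at 6.09, 7.13 and 6.49. In both genes the lowest 24 h array lay below the highest 48 h array, with differences of -1.54 ± 0.43 (adjusted p = 0.250 in limma) and -1.49 ± 0.46 (adjusted p = 0.294 in limma). Lcn2, the siderophore-binding lipocalin of secondary granules and of activated macrophages, kept its lowest 24 h array (10.83) above its highest 48 h array (10.58). In bulk RNA, fewer cells of a type and less RNA per cell cannot be told apart. The mean log2 level of the list overlapped between times (9.0 to 9.70 at 24 h, 8.49 to 9.16 at 48 h), and its part in the other differences was not tested.

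The blocked genes with higher values at 48 h (4 genes, 0.032%) were Col1a2, Ube2s, Ang and Tnni2. Col1a2, a chain of type I collagen, had log2 levels of 2.83, 3.22 and 2.63 at 24 h, near the filter level, and 4.02, 4.39 and 4.38 at 48 h. The difference was 1.37 ± 0.19 (adjusted p = 0.0560 in limma, 0.0253 with the block, 0.0111 to 0.278 over the alternatives), with no overlap. Col1a1, the partner chain, had 4.44, 4.18 and 4.34 and then 5.05, 5.02 and 5.07, also without overlap, at an adjusted p of 0.256 in limma. Of the 14 tested fibroblast and stromal markers, 2 were non-overlapping and higher (4.46% of all genes were), and the list's median difference was -0.02 (0.13 with arrays centred). Its mean log2 level was 5.94 to 6.65 at 24 h and 6.39 to 6.52 at 48 h, and the part of such cells in the collagen values was not tested.

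Ang, a secreted ribonuclease known as angiogenin, had log2 levels of 5.58, 5.69 and 5.96 at 24 h and 6.63, 6.68 and 6.70 at 48 h. Rnase4, a ribonuclease that shares its locus with Ang, had 10.39, 10.35 and 10.38 and then 11.11, 11.05 and 11.14. Both genes kept the times apart with little spread, by 0.93 ± 0.13 for Ang and 0.73 ± 0.13 for Rnase4, the second at an adjusted p of 0.0772 in limma and 0.0629 with the block (0.0199 to 0.309 over its alternatives). Tnni2, an inhibitory troponin subunit of fast muscle, had 4.13, 4.11 and 4.10 and then 5.03, 4.99 and 4.82. Ube2s, the ubiquitin-conjugating enzyme that extends chains for the anaphase-promoting complex, had 9.44, 9.50 and 9.06 and then 10.46, 10.26 and 10.19. These 2 genes were likewise non-overlapping, with differences of 0.83 ± 0.14 and 0.97 ± 0.15.

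Ube2s belongs to a process whose genes had higher values at 48 h as a group. Of 23 tested mitosis genes, 21 had a higher mean at 48 h (23 without the third replicate at 48 h), where 36.1% of all genes did. Their median difference was 0.44. With an in-sphere array left out in turn it ran from 0.31, without the third replicate at 24 h, to 0.52, without the third at 48 h. The arrays were non-overlapping and higher for 14 of 23 and lower for none, against 4.46% and 9.3% of all genes, and 18 of 23 were higher in all 3 experiments, as were 10.2% of all genes. No single member passed in limma, with or without the block. An unadjusted p under 0.05 was reached by 9 of 23, all higher, against 3.03% of all genes. Ube2c, the enzyme that starts the chains which Ube2s extends, had log2 levels of 9.20, 9.34 and 8.38 at 24 h and 10.06, 9.77 and 9.76 at 48 h. The difference of 0.89 ± 0.31 was the highest of the list (adjusted p = 0.361 in limma). The 24 h spread came from the third experiment, which was the lowest at 24 h for Cdk1, Ccnb2, Birc5, Aurka and Cdc20 as well.

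**Figure D2:**
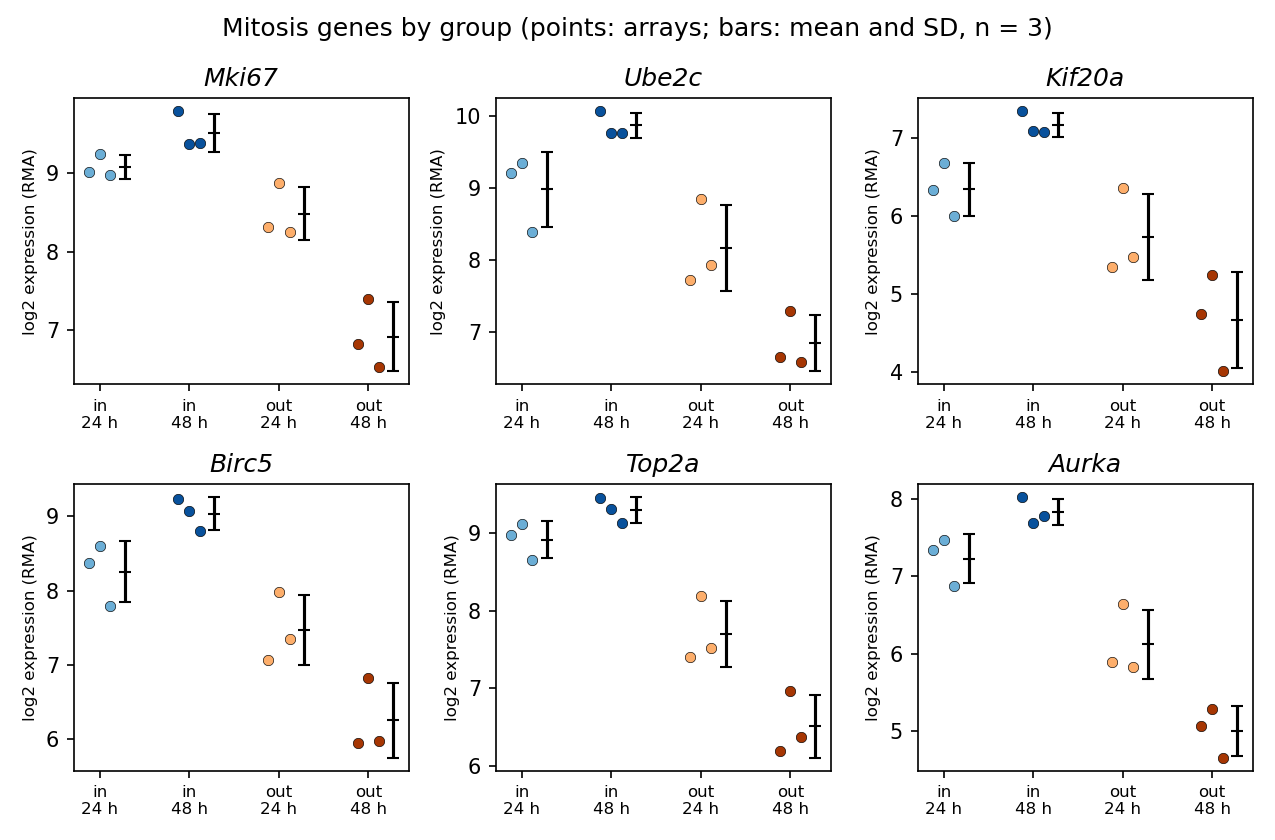
Log2 expression of mitosis genes on each array of the 4 groups; points are arrays and bars give the mean and SD of 3. Inside the spheres most 48 h arrays lie above the 24 h arrays, while outside the spheres the 48 h arrays lie below.

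Cdk1, the kinase that drives entry into mitosis, had 9.40, 9.15 and 8.58 at 24 h and 9.84, 9.73 and 9.43 at 48 h. Aurka, a spindle pole kinase, had 7.34, 7.47 and 6.87 and then 8.02, 7.69 and 7.78. Cdc20, which activates the anaphase-promoting complex, had 7.44, 7.53 and 7.08 and then 7.93, 7.95 and 7.88. In all of these each 48 h array lay above each 24 h array, by 0.62 ± 0.22, 0.60 ± 0.24 and 0.57 ± 0.21 on average. Birc5, the chromosomal passenger protein survivin, differed by 0.78 ± 0.29 and Ccnb2, a mitotic cyclin, by 0.67 ± 0.33. Mki67, the proliferation antigen, had 9.01, 9.24 and 8.97 and then 9.79, 9.36 and 9.38, a difference of 0.44 ± 0.23 (adjusted p = 0.517 in limma). Of the DNA replication genes, 18 of 25 had a higher mean at 48 h and 3 were non-overlapping and higher, against 36.1% and 4.46% of all genes, with a median of 0.07 (0.02 without the third replicate at 24 h, 0.18 without the second). The replication clamp loader Rfc3 differed by 0.56 ± 0.13 and the thymidine kinase Tk1 by 0.56 ± 0.23.

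CCAAT, the box bound by the factor NF-Y and common in promoters of genes of late cell cycle, was searched on both strands in the 250 bases before the start of each gene, from RefSeq's promoter table (GRCm38.p6). It was found in 16 of the 19 mitosis genes that the table holds (84.2%), in 61.9% of DNA replication genes, in 40.3% of tested genes and in 37.5% of all genes of the table. It was also found in 68.4% of amino acid and integrated stress response genes and 53.3% of NRF2 and antioxidant genes. In the other lists searched the share was 25.0% to 47.4%. The E2F motifs TTTGGCGC and TTTCCCGC were found in 0 of the 19 mitosis genes, against 0.884% and 1.82% of tested genes. With shares this low, 0 of 19 does not set the mitosis genes apart. In DNA replication genes the shares were 14.3% and 9.52%. A match describes letters and does not show a site. The windows of 4 mitosis genes that differ in the number and spacing of the boxes are shown, from the distal end to the base before the start, with CCAAT or its complement ATTGG in capitals. Ube2c lies at chr2:164769679-164769928 on the plus strand and holds 6 matches. Ccnb2 at chr9:70421555-70421804 holds 3, Top2a at chr11:99024190-99024439 holds 6 and Cdc20 at chr4:118437344-118437593 holds 2, all on the minus strand.
Ube2c: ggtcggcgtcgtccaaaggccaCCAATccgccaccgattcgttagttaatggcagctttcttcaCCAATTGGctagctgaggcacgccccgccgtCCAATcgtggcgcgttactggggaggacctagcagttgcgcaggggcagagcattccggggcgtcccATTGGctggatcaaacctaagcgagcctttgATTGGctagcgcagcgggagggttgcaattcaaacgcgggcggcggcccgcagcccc
Ccnb2: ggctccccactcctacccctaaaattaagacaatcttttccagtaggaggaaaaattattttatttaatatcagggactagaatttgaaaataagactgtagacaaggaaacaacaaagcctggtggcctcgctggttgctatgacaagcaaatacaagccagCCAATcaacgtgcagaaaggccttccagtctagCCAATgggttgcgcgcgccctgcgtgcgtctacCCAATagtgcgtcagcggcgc
Top2a: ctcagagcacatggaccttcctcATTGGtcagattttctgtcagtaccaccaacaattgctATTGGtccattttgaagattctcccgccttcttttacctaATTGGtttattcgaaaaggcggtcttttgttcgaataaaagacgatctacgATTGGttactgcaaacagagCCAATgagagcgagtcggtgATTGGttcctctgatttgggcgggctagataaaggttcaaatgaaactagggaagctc
Cdc20: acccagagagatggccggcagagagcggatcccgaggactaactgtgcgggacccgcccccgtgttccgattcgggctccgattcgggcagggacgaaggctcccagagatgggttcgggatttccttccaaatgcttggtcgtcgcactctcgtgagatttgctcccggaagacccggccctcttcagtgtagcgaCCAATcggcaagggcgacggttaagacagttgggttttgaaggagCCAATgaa
In Ccnb2 all 3 boxes read CCAAT on the gene's strand, while Ube2c and Top2a carry both orientations. The windows of Birc5 and Ube2s, whose arrays were also higher and non-overlapping, held 0 matches. Top2a itself, the DNA-untangling topoisomerase, had log2 levels of 8.97, 9.11 and 8.65 at 24 h and 9.45, 9.31 and 9.12 at 48 h.

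Inflammatory genes showed no uniform shift. Tnf, the tumour necrosis factor, had log2 levels of 9.98, 10.21 and 10.34 at 24 h and 10.30, 10.16 and 10.11 at 48 h. Il1b, interleukin-1 beta, had 11.32, 11.92 and 11.84 and then 11.81, 11.67 and 11.90. The arrays of the times overlapped for both, with 95% intervals of the difference from -0.30 to 0.32 and from -0.34 to 0.54. Nos2, the inducible nitric oxide synthase, stayed near the filter level on all 6 arrays (2.46 to 3.03). In the classical activation list 10 of 14 had a lower mean at 48 h (63.9% of all genes) and 3 were non-overlapping and lower (9.3%), and the median of -0.13 turned to 0.03 without the third replicate at 48 h and to 0.02 with arrays centred. The interferon-induced chemokine Cxcl11 stood at 6.34, 5.05 and 5.95 and then at 4.22, 4.70 and 3.80, without overlap (difference -1.54 ± 0.31, adjusted p = 0.141 in limma). Il6, interleukin-6, differed by -1.03 ± 0.37 and Cd40, a costimulatory receptor, by -1.07 ± 0.27 (adjusted p = 0.368 and 0.216 in limma).

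Interferon-stimulated genes had lower means at 48 h for 17 of 18 tested, where 63.9% of all genes did, with a median of -0.59. That median moved with the 24 h arrays, which differed widely: it was -0.19 without the third replicate at 24 h and -0.95 without the first, and -0.45 without the third at 48 h. The arrays did not overlap for 2 of the 18, both lower, near the 9.3% of all genes. The mean log2 level of the list ran from 7.13 to 8.57 at 24 h and from 6.99 to 7.69 at 48 h, and 7 of 18 were lower in all 3 experiments, as were 20.3% of all genes. Outside the spheres 17 of 18 also had lower means, with a median of -0.64 against 0.03 over all genes there. The in-sphere change minus the outside change had a median of -0.08 for the list and -0.10 for all genes. Gbp2, a guanylate-binding protein induced by interferon, had 7.17, 7.24 and 8.31 and then 6.20, 6.86 and 5.96. Cmpk2, a mitochondrial nucleotide kinase, had 7.79, 8.21 and 9.12 and then 7.06, 7.63 and 6.74. The third experiment was the highest at 24 h and the lowest at 48 h for both, which were at adjusted p of 0.362 and 0.430 in limma. In the NF-kB feedback list 13 of 16 had lower means, against 63.9% of all genes. Its median of -0.22 was -0.05 without the third replicate at 24 h, -0.40 without the first and -0.07 with arrays centred. The NF-kB subunit gene Rel differed by -0.73 ± 0.21. Toll-like receptors and co-receptors had lower means for 12 of 14, against 63.9% of all genes, with a median of -0.24 that was -0.07 without the third replicate at 24 h, -0.37 without the first and -0.09 with arrays centred. The adaptor Ticam1 differed by -0.56 ± 0.21. Outside the spheres the NF-kB feedback and Toll-like receptor lists had medians of -0.26 and -0.11.

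**Figure D3:**
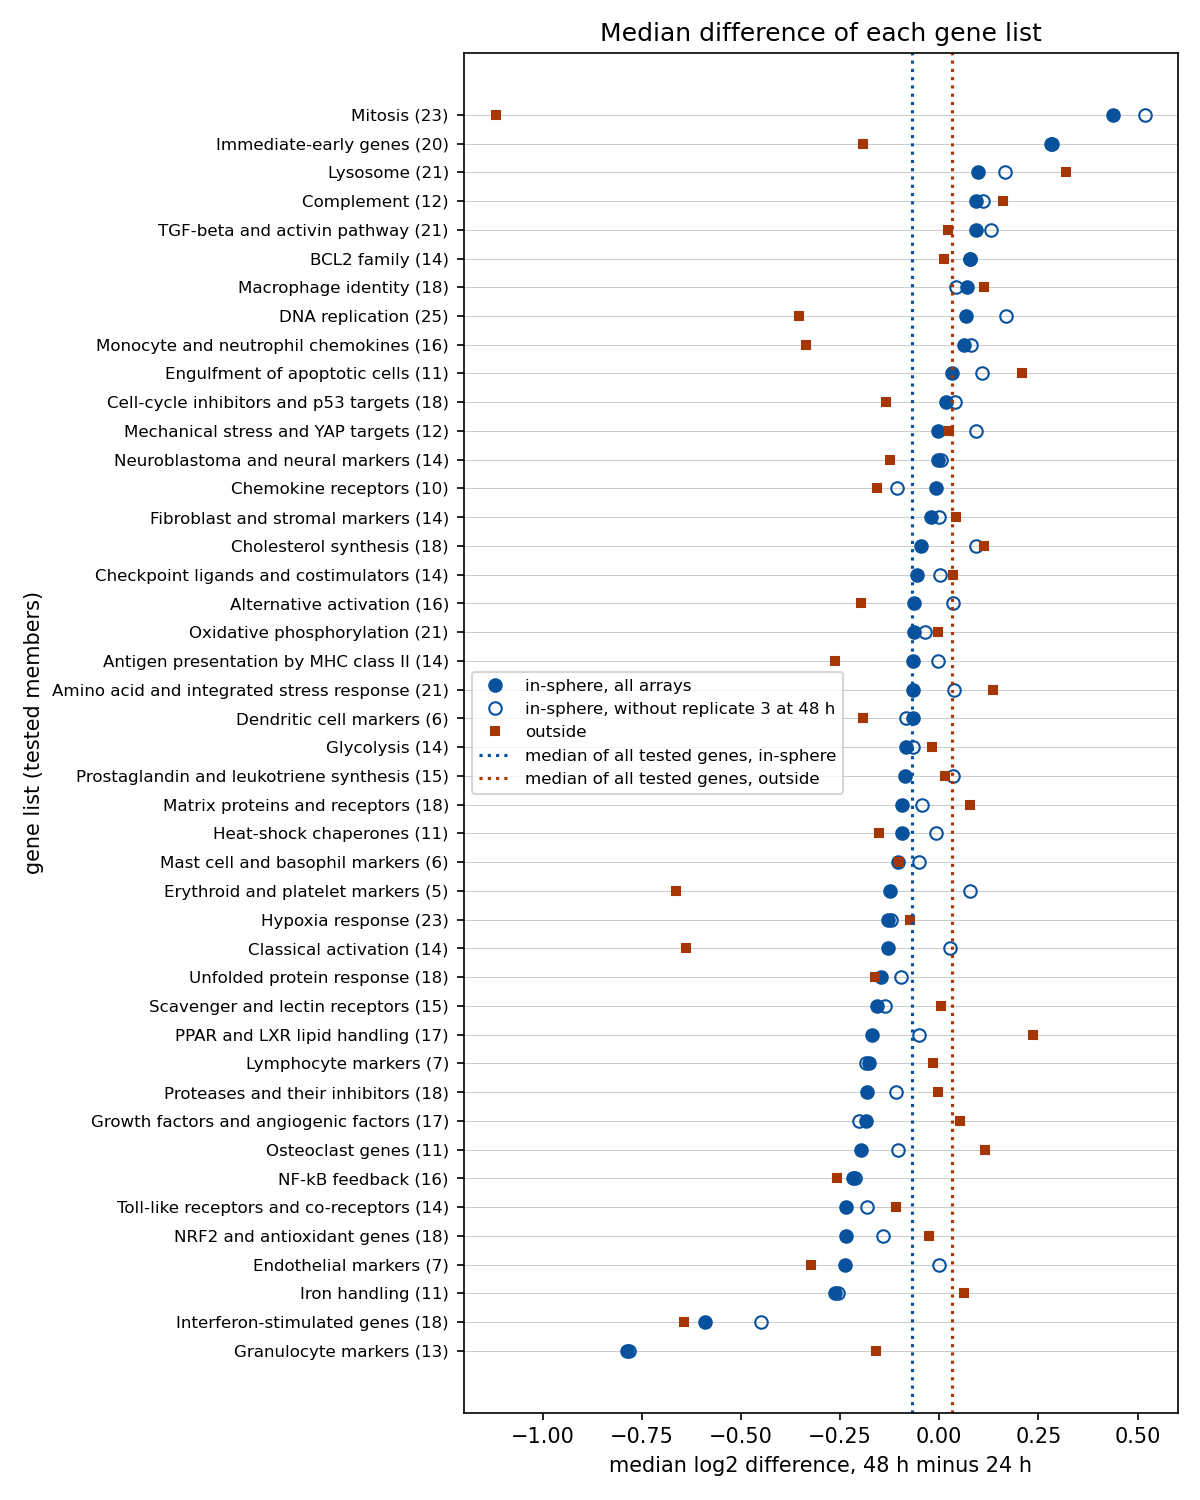
Median log2 difference between 48 h and 24 h for each gene list inside the spheres, with and without the third 48 h replicate, and outside the spheres; dotted lines mark the medians of all tested genes. Mitosis and immediate-early genes have the highest in-sphere medians, granulocyte and interferon-stimulated genes the lowest.

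Genes of alternative activation were mixed, with a median of -0.06 (0.09 with arrays centred) and 7 of 16 higher, where 36.1% of all genes were. Mrc1, the mannose receptor, had log2 levels of 8.98, 9.01 and 9.32 at 24 h and 10.19, 9.93 and 9.99 at 48 h. All 48 h arrays were above all 24 h arrays, by 0.93 ± 0.28 (adjusted p = 0.282 in limma). Chil4, a chitinase-like protein, differed by -0.98 ± 0.34. Arg1, which breaks down arginine, was at 12.94, 12.43 and 12.51 and then 12.75, 12.44 and 12.65, with overlapping arrays. The SE of its difference was 0.93 in the model of all 12 arrays and 0.18 in a fit of the 6 in-sphere arrays alone. Il10, the anti-inflammatory cytokine, differed by 0.0039 (95% interval -0.52 to 0.52), with 8.04, 8.73 and 8.85 at 24 h and 8.11, 8.72 and 8.79 at 48 h. Cd274, the checkpoint ligand PD-L1, differed by -0.47 ± 0.16 and its times overlapped.

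The defining macrophage genes kept overlapping arrays between the times, apart from 3 of the 18 in the list, 2 of them higher (4.46% of all genes) and 1 lower (9.3%). The integrin chain Itgam differed by 0.25 ± 0.25, the growth factor receptor Csf1r by 0.03 ± 0.21, the leukocyte antigen Ptprc by 0.07 ± 0.16 and the surface marker Adgre1 by 0.23 ± 0.13. Trem2, a lipid-sensing receptor, was one of the 3, at 9.69, 9.73 and 9.95 and then 10.23, 10.20 and 10.33 (0.46 ± 0.17, adjusted p = 0.367 in limma), although its other probe set differed by 0.03. Cebpa, a myeloid transcription factor, differed by -0.52 ± 0.19. In the list of monocyte and neutrophil chemokines, which does not hold Cxcl11, 12 of 16 had higher means, against 36.1% of all genes. No member had an unadjusted p under 0.05, against 10.7% of all genes in either direction. Its median of 0.06 was -0.01 without the first replicate at 24 h and 0.16 without the third. Cx3cr1, the fractalkine receptor of tissue macrophages, had 7.96, 8.66 and 8.61 and then 9.15, 9.14 and 8.87, while its other probe set differed by 0.20.

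Immediate-early genes, which cells switch on within minutes of a stimulus, had higher means at 48 h for 15 of 20 tested, where 36.1% of all genes did, with a median of 0.28 (0.20 to 0.36 with an in-sphere array left out in turn). The arrays were non-overlapping and higher for 9 of 20, against 4.46% of all genes, and 11 of 20 were higher in all 3 experiments, against 10.2%. None passed in limma, and 10 of 20 had an unadjusted p under 0.05, all higher, against 3.03% of all genes. Jun, an AP-1 subunit, had log2 levels of 9.19, 9.87 and 9.31 at 24 h and 10.27, 10.26 and 10.25 at 48 h (0.80 ± 0.22, adjusted p = 0.248 in limma), and its other probe set differed by 0.16. Nr4a1, an orphan nuclear receptor, had 9.88, 10.16 and 10.10 and then 10.56, 10.47 and 10.63 (0.51 ± 0.12, adjusted p = 0.195 in limma). Each of the 48 h arrays lay above the 24 h arrays in both genes. Dusp2, a phosphatase that ends MAP kinase signals, differed by 0.97 ± 0.32, with overlapping arrays. 

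Of 17 growth and angiogenic factors 4 were non-overlapping and lower and 1 higher, against 9.3% and 4.46% of all genes. Their median of -0.19 was -0.04 with arrays centred, -0.12 without the third replicate at 24 h and -0.30 without the first at 48 h. Ereg, the epidermal growth factor receptor ligand epiregulin, had log2 levels of 7.53, 7.47 and 7.05 at 24 h and 6.26, 6.07 and 5.72 at 48 h. The difference of -1.34 ± 0.24 kept the times apart and had an adjusted p of 0.0817 in limma (0.0767 with the block, 0.0141 to 0.304 over the alternatives). Hbegf, another ligand of that receptor family, had 7.67, 7.32 and 7.84 and then 6.97, 6.66 and 6.56, also non-overlapping. Bmp2, a bone morphogenetic protein, differed by -0.97 ± 0.32 and Pgf, placental growth factor, by -0.65 ± 0.18. Vegfa, the main angiogenic factor, was non-overlapping in the other direction, at 8.95, 8.95 and 9.02 and then 9.17, 9.08 and 9.31 (0.22 ± 0.14), whereas its other probe set differed by -0.10. Inhba, the activin A subunit, differed by -0.79 ± 0.22 without overlap.

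Among genes of the matrix and its turnover, Mmp2, a gelatinase, differed by -0.97 ± 0.27 and Mmp12, the macrophage elastase, by 0.57 ± 0.17, both without overlap. Ankrd1, a target of the mechanical sensor YAP, had log2 levels of 6.45, 7.02 and 6.30 at 24 h and 7.48, 7.85 and 8.19 at 48 h. The times lay apart by 1.25 ± 0.27 (adjusted p = 0.170 in limma, 0.0733 with the block, 0.0692 to 0.426 over the alternatives). The list of mechanical stress and YAP targets as a whole had a median near 0 (0.15 with arrays centred), with 6 of 12 higher (36.1% of all genes) and 2 non-overlapping and higher (4.46%), Ankrd1 and Birc5. Postn, a matrix protein of stromal cells, differed by 0.79 ± 0.32 and Thbs2 by -0.61 ± 0.34, with overlapping arrays.

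Iron genes had lower means at 48 h for 9 of 11 and 4 were non-overlapping and lower, against 63.9% and 9.3% of all genes. Their median of -0.26 was -0.11 with arrays centred and -0.40 without the second replicate at 24 h. Slc40a1, the iron exporter ferroportin, had log2 levels of 7.51, 7.69 and 7.56 at 24 h and 6.30, 7.14 and 6.17 at 48 h. All 48 h arrays were below all 24 h arrays, by -1.05 ± 0.20 (adjusted p = 0.116 in limma, 0.0641 with the block, 0.00287 to 0.491 over the alternatives), and its other probe set differed by -1.41. Antioxidant genes under NRF2 control had lower means for 14 of 18 and 6 were non-overlapping and lower, against 63.9% and 9.3% of all genes. Their median of -0.24 was -0.09 with arrays centred and -0.14 without the third replicate at 48 h. Nqo1, a quinone reductase, had 6.19, 5.61 and 4.75 and then 4.65, 4.65 and 3.48, with no overlap and a difference of -1.26 ± 0.35. The cystine carrier Slc7a11 had 4.60, 5.17 and 4.74 and then 4.26, 4.53 and 2.78, the third 48 h array being far the lowest. Its difference was -0.98 ± 0.39 with that array and -0.44 ± 0.28 without it.

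Lipid genes under PPAR and LXR control were lower and non-overlapping for 6 of 17 and higher for 1, against 9.3% and 4.46% of all genes. Their median of -0.17 was -0.02 with arrays centred and -0.05 without the third replicate at 48 h. Lpl, lipoprotein lipase, had log2 levels of 11.34, 11.48 and 10.997 at 24 h and 10.55, 10.71 and 9.83 at 48 h. Apoc2, the apolipoprotein that activates that lipase, had 8.79, 9.85 and 9.98 and then 10.66, 10.59 and 10.48. Enzyme and activator were non-overlapping in opposite directions, by -0.91 ± 0.21 and 1.04 ± 0.25, both at an adjusted p of 0.195 in limma. Ch25h, which makes 25-hydroxycholesterol, was higher and non-overlapping at 48 h by 0.72 ± 0.22. Lysosome genes had higher means for 16 of 21, against 36.1% of all genes, with a median of 0.10 (0.02 without the first replicate at 24 h, 0.16 without the third at 48 h). The membrane protein Lamp2 (0.27 ± 0.14) and the protease Ctsa (0.24 ± 0.12) were higher and non-overlapping, and the proton pump subunit Atp6v1b2 (-0.48 ± 0.13) lower. Outside the spheres lysosome genes had higher means for 19 of 21, with a median of 0.32 against 0.03 over all genes there.

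Metabolic and stress lists differed little in size. The hypoxia response had a median of -0.13 (-0.0054 without the first replicate at 24 h), with 2 of 23 non-overlapping in each direction, against 4.46% higher and 9.3% lower over all genes. Ddit4, a stress-induced inhibitor of mTORC1, had higher values (7.12, 7.19 and 6.62, then 7.55, 7.66 and 7.69) and Ndrg1, another hypoxia-induced gene, lower ones (9.39, 9.25 and 9.60, then 8.93, 8.80 and 8.48). Glycolysis had a median of -0.08, within -0.29 to 0.37 for all 14 members. Oxidative phosphorylation had one of -0.06, with no member beyond -0.26 and 5 of 21 non-overlapping and lower, against 9.3% of all genes. The unfolded protein response was lower and non-overlapping for 6 of 18, against the same 9.3%, with a median of -0.15 (-0.10 without the third replicate at 48 h), Hyou1, an endoplasmic reticulum chaperone, by -0.41 ± 0.13. With arrays centred these 4 medians turned positive, at 0.02, 0.07, 0.09 and 0.0028 in that order. Outside the spheres the same lists had medians of -0.07, -0.02, -0.0028 and -0.16.

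Of other genes fixed for description, Dlk1, a non-canonical Notch ligand, had log2 levels of 8.79, 8.17 and 7.64 at 24 h and 8.99, 8.76 and 8.89 at 48 h (0.68 ± 0.23, adjusted p = 0.345 in limma). Crabp1, a retinoic acid carrier, differed by 0.27 ± 0.62, Dkk2, a Wnt antagonist, by 0.17 ± 0.22, Il33, an alarmin, by -0.42 ± 0.36 and Ccl12, a monocyte chemokine, by 0.51 ± 0.57. Their arrays overlapped between the times. Cdkn2a, the tumour suppressor locus of p16 and p19, differed by 0.78 ± 0.38, with 7.24, 7.54 and 6.28 and then 7.25, 8.76 and 7.40. Cdkn2a was in the list of cell-cycle inhibitors and p53 targets. The same list held Cdkn2c, an inhibitor of cyclin D kinases, at 7.11, 7.15 and 6.34 and then 7.85, 7.80 and 7.24. Each 48 h array of Cdkn2c was above each 24 h array. Of the 18 tested members, 9 had a higher mean at 48 h, against 36.1% of all genes, and the median was 0.02 (0.17 with arrays centred). Arrays were non-overlapping and higher for 3 and lower for 2, against 4.46% and 9.3% of all genes.

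Outside the spheres the same interval gave 42 genes at an adjusted p under 0.05 in limma (0.336%), 14 higher (0.112%) and 28 lower (0.224%), and 158 with the block (1.27%). That count was 0 without outside replicate 3 at 24 h or replicate 1 at 48 h. Within-experiment differences correlated across genes at r of 0.476 to 0.520 outside and 0.0962 to 0.319 inside, a description over genes, which are not independent replicates. Slc13a3 and Tnni2 were the 2 blocked in-sphere genes that were also among the 42 called outside without the block, at -2.65 and 0.96. The overlap with the 158 called outside with the block was not counted. A test of whether the change differed between compartments called no gene in limma without the block (1534 at an unadjusted p under 0.05, 12.3%) and 65 with it (0.52%), 45 higher inside (0.36%) and 20 lower (0.16%). Of the 45, 41 had a higher mean at 48 h inside and a lower one outside.

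**Figure D4:**
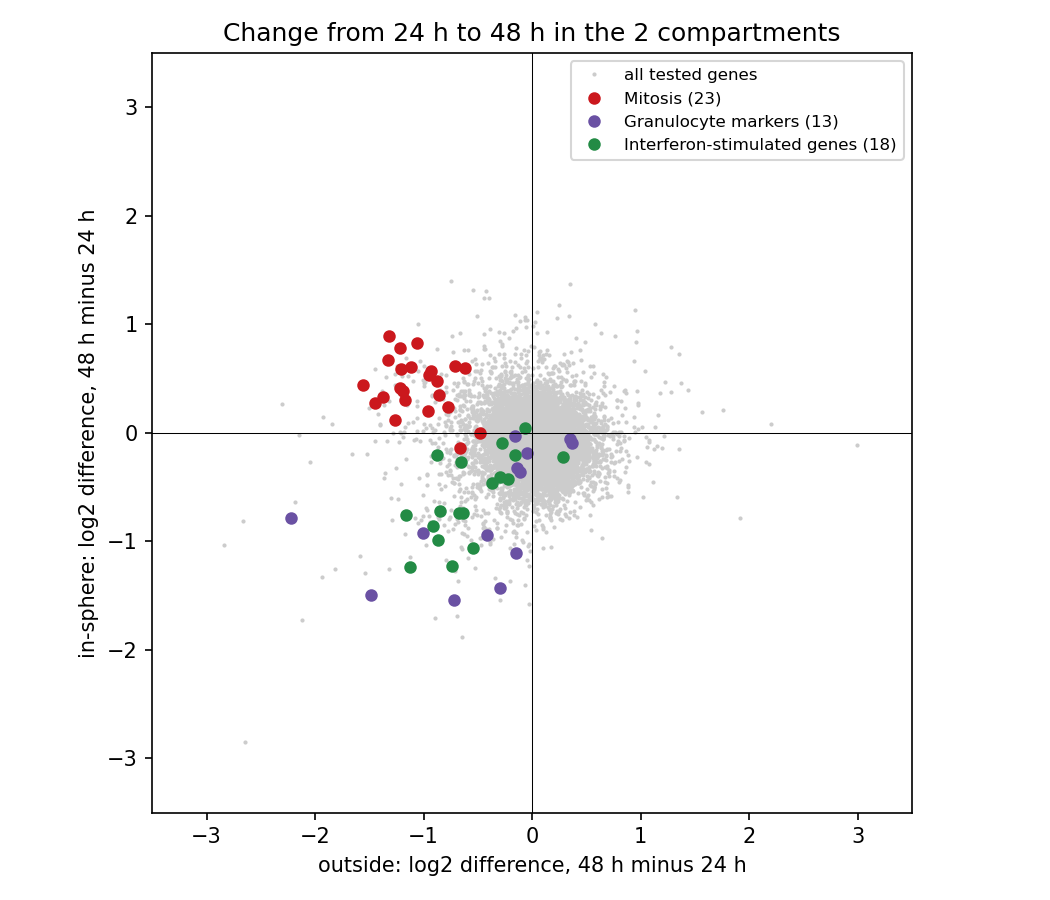
Log2 difference between 48 h and 24 h outside the spheres (x axis) against inside the spheres (y axis) for each tested gene, with mitosis, granulocyte and interferon-stimulated genes marked. Mitosis genes lie at upper left, 21 of 23 above 0 inside and all 23 below 0 outside.

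Mitosis genes made up 12 of the 45, out of 23 tested, with a difference between compartments of 1.48 to 2.21 and adjusted p of 0.0375 to 0.0440 in limma with the block (0.0241 to 0.437 over the alternatives). Outside the spheres all 23 had a lower mean at 48 h, with a median of -1.12, and 22 were lower in all 3 experiments, as were 18.9% of all genes there. 4 of the 23 passed outside without the block (0.224% of all genes were called lower). With the block 14 of the 23 passed there, all lower, where 1.27% of all genes were called in either direction. Mki67 outside had log2 levels of 8.32, 8.87 and 8.26 at 24 h and 6.83, 7.40 and 6.53 at 48 h. It differed by -1.56 ± 0.23 (adjusted p = 0.0187 in limma), against 0.44 inside. With arrays centred, 70 of all tested genes were called for this difference, 16 of them mitosis genes. With array weights 130 were called, 14 of them mitosis genes. The blocked fit without the third in-sphere replicate at 48 h called 5 genes, 0 of them mitosis genes. With so few calls among all genes, that 0 does not set the mitosis genes apart.

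Several other genes called with the block for a difference between compartments, chosen after their values were seen, differed mainly on one side. Cxcl10, an interferon-induced chemokine, differed by -0.02 inside and -2.15 outside, and Il10 by 0.0039 inside and -1.22 outside. Ccr2, the monocyte chemokine receptor, differed by 0.26 inside and -2.31 outside, but its 3 other probe sets ranged from -0.67 to 0.43 inside. By contrast, Alas1 differed more inside (-1.03) than outside (-0.16), and Nr4a1 in opposite directions (0.51 inside, -0.53 outside). P2ry12, a purinergic receptor known from microglia, had in-sphere log2 levels of 3.37, 3.14 and 3.49 at 24 h and 4.62, 4.12 and 4.04 at 48 h (0.93 ± 0.15, adjusted p = 0.0563 in limma), against -0.31 outside.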

How the data were processed

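Affymetrix mouse arrays were hybridised with cRNA from total RNA of 12 samples in 4 groups of 3, labelled with a kit for 3′ transcription according to the labels. Values were used as deposited: the authors summarised each probe set by RMA on a log2 scale, with Affymetrix Expression Console 1.1 named in the submitters' processing notes. RMA quantile-normalises arrays together and compresses differences of dim probe sets. Base 2 was inferred from the range of the values. Array number limits precision.

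Of 45141 probe sets with 0 missing values, 28898 had 1 gene symbol in the platform annotation, 551 several and 15692 none, which include the 104 array controls. Gene identifiers of 28689 single-gene probe sets matched the RefSeq table and 0 symbols changed. Each of 17097 genes was represented by its brightest probe set on average over the 12 arrays. Genes above 2.77, the 40th percentile of all values, on at least 3 arrays were tested (12488).

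A group-means model of all 12 arrays was fitted by limma's lmFit and contrasts were moderated by eBayes (limma 3.58.1 under R 4.3.3, 8 residual and 4.09 prior degrees of freedom), with Benjamini-Hochberg adjustment over all tested genes and a threshold of 0.05. The scripts were tested on simulated data. Array-level measures were compared by exact permutation tests. Alternatives were the replicate number as a block, other filters, probe-set rules, array weights, centring, a trended robust prior, the compartment's arrays alone and leaving out each array. The fit without the third in-sphere replicate at 48 h with the block was added after seeing the data. Replicate numbers were taken as pairing, since the series' design text makes each an independent experiment. Deviations of same-numbered in-sphere arrays from their group means correlated across genes at 0.116, 0.140 and 0.0247, and those of outside arrays at 0.471, 0.473 and 0.419.

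The comparison, the 44 gene lists (724 genes, 661 with a probe set) and the tests were chosen with earlier results of these data known. Named genes were to be the 15 largest differences per direction among called non-overlapping genes, of which there were none, 5 per direction outside, a fixed set, and up to 2 members of each list without a call. Genes called with the block, those with the smallest adjusted p and a few others were added after their values were seen. Promoter sequences are RefSeq's.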

Additional observations from a re-analysis of the deposited data

Results flagged for a closer look

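Several genes differed in their change between compartments in limma's test of that difference with the experiment as a block, while the fit without the block called none of them. The value given is the in-sphere change from 24 h to 48 h minus the outside change on the log2 scale, and positive values mean a higher change inside. Cell-cycle genes were Ube2c at 2.21, Mki67 at 2.00, Birc5 at 2.00, Kif20a at 1.89 and the cyclin kinase inhibitor Cdkn2c at 1.36. Secreted immune proteins were the chemokine Cxcl10 at 2.12 and the cytokine Il10 at 1.22. The primary granule protease Prtn3 stood at 1.43. Like all 13 tested granulocyte genes it had a lower mean at 48 h inside, so its positive value reflects a larger fall outside. The bone matrix genes Dmp1 and Ibsp stood at -3.11 and -2.11, with outside changes of 2.99 and 2.20 and in-sphere log2 levels near or below the filter level. Adjusted p over all 65 genes called was 0.0288 to 0.0499 with the block and 0.0114 to 0.545 over the alternatives.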

How the results depend on the processing

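Inside the spheres 0 genes passed in limma. The count was 15 with the replicate block, 4 with no filter, 9 with the mean of probe sets, 115 with array weights (13 of them among the 15 of the block), 12 with arrays centred on the median, 11 with a trended robust prior and 2 in the added blocked fit without the third in-sphere replicate at 48 h. It was 0 with a stricter filter, with the probe set of largest variance and in the 6 in-sphere arrays alone, and 0 to 10 when an array was left out. The in-sphere arrays that raised it were the second at 48 h (10 genes), the second at 24 h (9) and the first at 48 h (2), and 3 outside arrays gave 1 or 2. Among list genes the count of 0 became 2 with the block, 1 with no filter, 2 with the mean of probe sets, 12 with array weights, 1 with centring, 2 with the trended prior and 0 to 5 when an array was left out (5 without the in-sphere replicate 2 at 48 h, 3 without that at 24 h, 1 without the outside replicate 1 at 48 h).

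Outside the spheres the 42 genes became 158 with the block, 286 with array weights, 120 with centring, 89 with the trended prior, 1 in the 6 outside arrays alone, 234 in the added fit and 0 to 68 when an array was left out: 0 without the outside arrays of replicate 3 at 24 h or replicate 1 at 48 h, 6 without replicate 3 at 48 h, 13 without replicate 2 at 24 h, 24 and 25 without the in-sphere arrays of replicate 2 at 24 h and 48 h, and 68 without the in-sphere replicate 3 at 48 h. The difference between compartments went from 0 to 65 genes with the block, 1 with the mean of probe sets, 130 with array weights, 70 with centring, 7 with the trended prior, 5 in the added fit and 0 to 2 when an array was left out (2 without the outside replicate 2 at 24 h or the in-sphere replicate 2 at 48 h). Among mitosis genes outside the spheres, the block raised the calls from 4 to 14 of 23. The cause of these shifts was not tested.

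Signs that turned were those of uncalled differences. With array weights Arg1 stood at 0.049, Ccl5 at 0.28, Csf1r at -0.0080, Il10 at -0.12, Il1b at -0.14, Itgam at -0.086, Nos2 at 0.0091, Ptprc at -0.037, Ptprz1 at -0.050 and Tnf at -0.019. With centring Arg1 stood at 0.14, Cxcl10 at 0.13, Dmp1 at 0.033 and Nos2 at 0.036. With the probe set of largest variance Cd80 stood at -0.23, Irak3 at 0.017, Tnc at -0.015 and Vegfa at -0.10, and with the mean of probe sets Ms4a1 at 0.12. In the added fit Crabp1 stood at -0.29, Cxcl10 at 0.29, Kdr at 0.022, Mcpt8 at 0.15, Nos2 at 0.058 and Ptprz1 at -0.11. Leaving out an array gave ranges of -0.11 to 0.14 for Arg1, -0.067 to 0.47 for Ccr2, -0.18 to 0.26 for Csf1r, -0.29 to 0.16 for Cxcl10, -0.11 to 0.42 for Dkk2, -0.38 to 0.076 for Dmp1, -0.22 to 0.65 for Hspb1, -0.087 to 0.21 for Ibsp, -0.25 to 0.22 for Il10, -0.087 to 0.21 for Il1b, -0.57 to 0.00015 for Kdr, -0.24 to 0.042 for Nos2, -0.12 to 0.20 for Ptprc, -0.049 to 0.36 for Ptprz1 and -0.089 to 0.093 for Tnf. Of 3209 values of 146 genes under 22 alternatives, 3072 kept direction and side of the threshold, 88 passed it and 49 turned sign.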

Other observations

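Genes outside the described groups also kept the times apart inside the spheres and had in-sphere adjusted p close to the threshold, and they were chosen for that. Upp1, a uridine phosphorylase, had log2 levels of 7.57, 6.98 and 7.34 at 24 h and 6.38, 6.28 and 6.19 at 48 h. Its difference was -1.01 ± 0.17 (adjusted p = 0.0681 in limma), against -0.39 outside. C1rb, a protease of the classical complement pathway, had 3.96, 3.74 and 3.69 and then 4.54, 4.48 and 4.66. It differed by 0.76 ± 0.12. The complement list had a median of 0.09 and held 0 non-overlapping genes of 12, against 4.46% higher and 9.3% lower over all genes. Il1f6, an interleukin-1 family cytokine, differed by -0.83 ± 0.14, the membrane protein Tmem26 by -1.09 ± 0.18 and St7 by -0.72 ± 0.12, all at an adjusted p of 0.0563 in limma.

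Genes of lipid mediators, bone resorption and antigen presentation gave mixed values. Hpgds, which makes prostaglandin D2, had 5.28, 6.42 and 5.83 at 24 h and 6.65, 6.91 and 6.73 at 48 h. Each 48 h array was above each 24 h array (0.92 ± 0.22, adjusted p = 0.195 in limma), while the list of prostaglandin and leukotriene genes had a median of -0.09 (0.06 with arrays centred). Tnfrsf11a, the receptor that starts osteoclast formation, differed by -0.65 ± 0.16 without overlap. Cd74, the invariant chain of MHC class II, differed by -0.80 ± 0.30 and H2-DMb1, which helps load peptides on it, by 0.69 ± 0.20. Fcrls, a receptor-like gene known from microglia, differed by 0.76 ± 0.29 inside and -0.62 outside.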
